A study of Homo sapiens with 9 samples.

Results

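The proneural basic helix-loop-helix (bHLH) factors described here are 9 genes, NEUROG1, NEUROG2, NEUROD1, NEUROD2, NEUROD4, ATOH1, PTF1A, NHLH1 and NHLH2, chosen by gene symbol among the 31589 genes of the deposited count tables. Their mRNA was measured by bulk RNA sequencing of whole spinal cord organoids (SCOs) made from WTC, a human induced pluripotent stem cell line whose genotype the labels give as WT. The 9 libraries fall into 3 conditions of 3, which are vehicle (FGF), VPA (valproic acid, an inhibitor of histone deacetylases) and VPA + Rapamycin (Rapamycin inhibits the kinase mTOR). The labels give 96 h of exposure for each, while the study's text gives different lengths of exposure for its experiments and more than one VPA dose. According to its methods, several organoids of a clone were pooled, and the clones carry a reporter in SOX10, with lesions of the other SOX10 allele in some clones. The study's text gives 3 clones as the source of its sequenced SCOs. The labels repeat the same 3 prefixes in each condition but name no clone, so replicate numbers were not tied to clones. The p-values below measure the spread between these libraries, which may be between clones of WTC or technical.

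Proneural factors bind DNA as pairs with the broadly expressed E proteins and start the program that turns a dividing neural progenitor into a neuron. They recognize E-boxes, short sites of the form CANNTG, where N is any base. NEUROG1, NEUROG2, ATOH1 and PTF1A act early, in progenitors of different dorsoventral domains of the spinal cord, and NEUROD1, NEUROD2, NEUROD4, NHLH1 and NHLH2 act later, in cells that have started to differentiate. HES proteins repress proneural genes under Notch signalling, and ID proteins bind E proteins without binding DNA.

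Depth was similar among the conditions, with 15290299 to 17417338 reads counted on genes per library, and counts were scaled to a common depth as described under processing (normalized counts). All 12 pan-neuronal markers and all 8 neural progenitor markers had reads, which does not test whether the tissue is spinal cord. Vehicle replicate 3 stood apart in some genes of dorsal neurons, neural crest and mesenchyme, as described with ATOH1, and values that it moved by over 1.5 times on the log2 scale are given with and without it. Bulk libraries cannot tell fewer cells of a type from less RNA per cell, and this holds for every difference below.

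The members fell into 6 that were expressed in every library, with 71 counts or more in each, and 3 that had 7 counts or fewer in at least 8 of the 9 libraries. In vehicle SCOs the later-acting NHLH1 and NEUROD4 stood highest per length, with 40.1 ± 5.96 and 33.9 ± 6.80 RPKM (counts per kilobase of gene length, scaled to the same depth, mean ± SD, n = 3). NEUROG1 followed with 28.9 ± 4.90 RPKM, NHLH2 with 20.4 ± 10.1 RPKM and NEUROD1 with 18.9 ± 3.75 RPKM. Each of these 5 levels overlapped the next in this order. NEUROG2 stood apart below them at 3.65 ± 0.425 RPKM. ATOH1 had a mean of 1.18 RPKM that came from 1 library, PTF1A had 0.0638 RPKM and NEUROD2 had 0.0129 RPKM. In VPA SCOs the order was NEUROD4 (21.5 ± 1.92 RPKM), NEUROG1 (15.8 ± 2.28 RPKM), NHLH1 (15.4 ± 2.03 RPKM), NHLH2 (6.73 ± 1.45 RPKM), NEUROD1 (3.52 ± 0.428 RPKM) and NEUROG2 (2.19 ± 0.413 RPKM). Of these 6, neighbours overlapped only between NEUROG1 and NHLH1. In VPA + Rapamycin SCOs the order was the same as with VPA alone, at 25.5 ± 3.83 RPKM for NEUROD4, 20.2 ± 3.35 RPKM for NEUROG1, 17.3 ± 2.64 RPKM for NHLH1, 11.3 ± 1.81 RPKM for NHLH2, 6.07 ± 0.633 RPKM for NEUROD1 and 3.97 ± 0.823 RPKM for NEUROG2, with NEUROD4 overlapping NEUROG1 and NEUROG1 overlapping NHLH1.

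**Figure D1:**
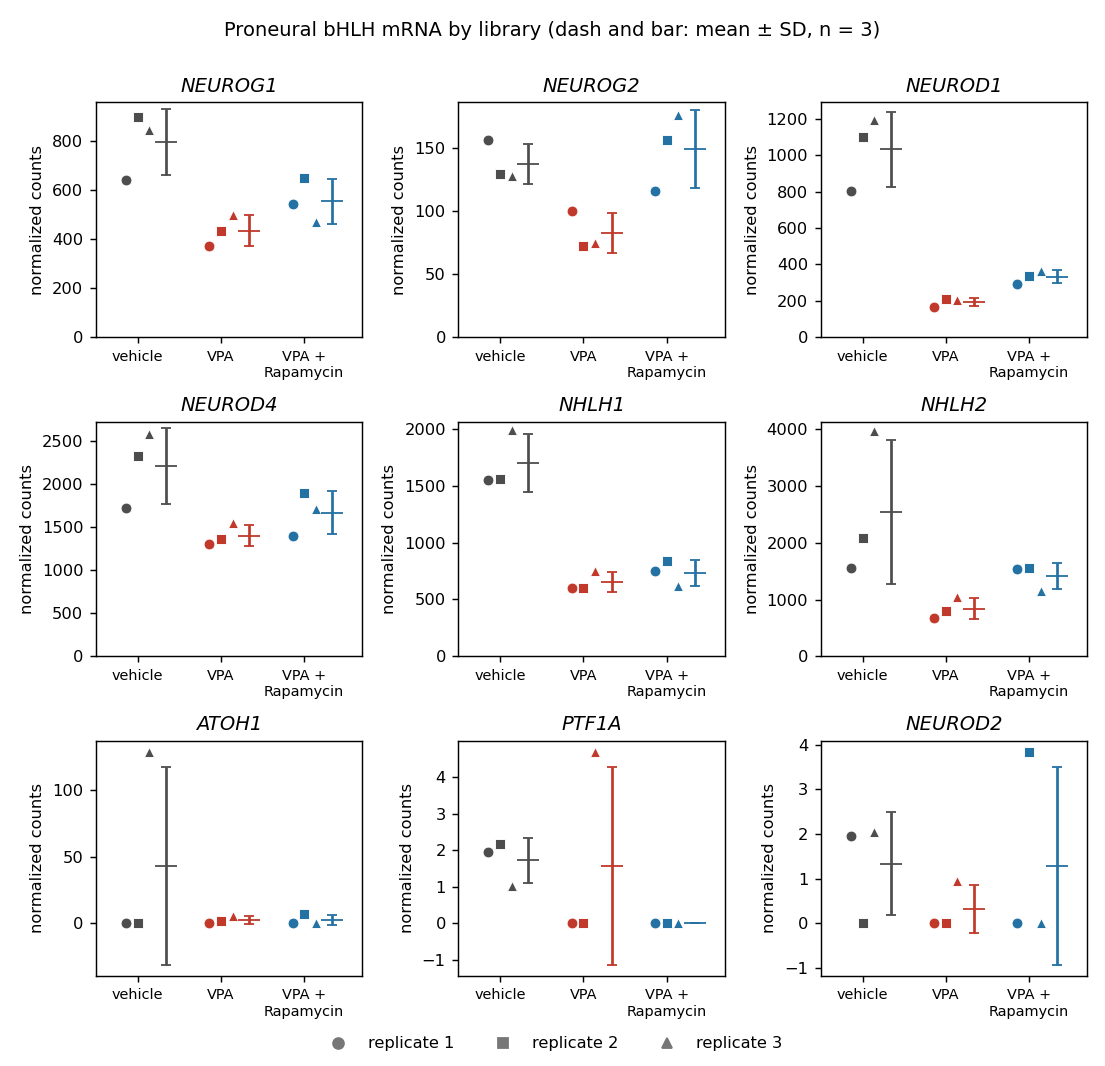
Normalized counts of each of the 9 members (vertical axis, one scale per panel) in the 3 vehicle, 3 VPA and 3 VPA + Rapamycin libraries, with marker shapes for the replicate number and dashes with bars for the mean ± SD. NEUROG1, NEUROG2, NEUROD1, NEUROD4, NHLH1 and NHLH2 are lower in every VPA library than in every vehicle library, and the ATOH1 reads of vehicle come from replicate 3.

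VPA lowered all 6 expressed members relative to vehicle, and the 3 VPA libraries lay below the 3 vehicle libraries for each of them, as they did for 22.6% of all genes tested. In edgeR's quasi-likelihood test with Benjamini-Hochberg adjustment over all 17360 genes tested, 6 of 6 were called lower and 0 higher at an adjusted p of at most 0.05, where 15.7% of all genes tested were called lower and 16.4% higher. The median log2 fold change of the 6 was -1.14, beside 0.00 over all genes. For groups that do not overlap the exact two-sided permutation test gave 0.1, the smallest p that 3 libraries against 3 allow. ATOH1, PTF1A and NEUROD2 did not pass the filter on low counts and were not tested.

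Rapamycin added to VPA was then set against VPA alone. No condition had Rapamycin without VPA. Effects that Rapamycin has on its own and effects on the response to VPA therefore cannot be told apart here. NEUROG2, NEUROD1 and NHLH2 were called higher and 0 members lower, where 3.01% of the 17317 genes tested were called higher and 3.73% lower. All 6 log2 differences were above 0, with a median of 0.55, beside 0.00 over all genes. Against vehicle, VPA + Rapamycin SCOs had NEUROD1, NHLH1 and NEUROG1 called lower and 0 members higher, where 9.22% of the 17383 genes tested were called lower and 9.81% higher. The median log2 difference of the 6 was -0.69. By DESeq2 and at an unadjusted edgeR p under 0.05 the counts of 0 in these comparisons were also 0. The comparisons share their libraries in pairs, so their values are given side by side and are not independent.

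**Figure D2:**
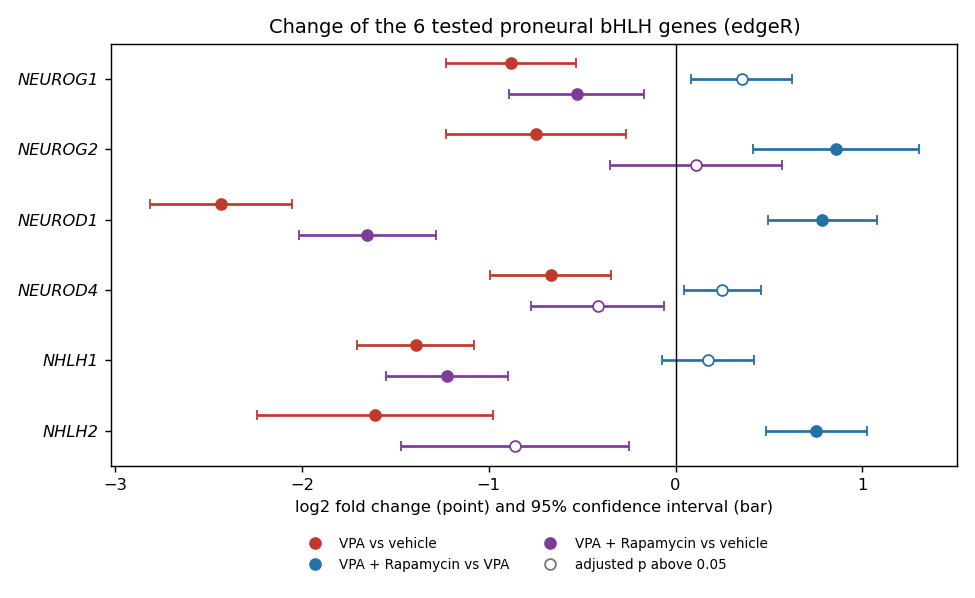
Log2 fold change (horizontal axis) with its 95% confidence interval for the 6 tested members in VPA against vehicle, VPA + Rapamycin against VPA and VPA + Rapamycin against vehicle, with open points for adjusted p above 0.05. NEUROD1 is farthest below vehicle in both treated conditions, at -2.43 and -1.65, and NEUROG2 with VPA + Rapamycin lies at 0.11 from vehicle.

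Among the early factors, NEUROG1 specifies progenitors of dorsal interneurons and, in the crest lineage, of sensory neurons. It had 644, 901 and 845 normalized counts in the vehicle libraries, 373, 435 and 498 in the VPA libraries and 545, 652 and 468 in the VPA + Rapamycin libraries. The VPA libraries were all below the vehicle libraries, while the VPA + Rapamycin libraries overlapped with both other conditions. NEUROG1 fell with VPA to 54.7% of the vehicle mean, a log2 fold change of -0.88 ± 0.16 (SE; edgeR adjusted p = 0.00193). With VPA + Rapamycin it stood at 69.7% of the vehicle mean. The difference from VPA was 0.35 on the log2 scale (95% interval 0.08 to 0.62) and did not pass the test (edgeR adjusted p = 0.109), and that from vehicle was -0.53 (edgeR adjusted p = 0.0441). The call against vehicle was lost without vehicle replicate 2 (edgeR adjusted p = 0.163), without VPA + Rapamycin replicate 1 (0.148), replicate 2 (0.0529) or replicate 3 (0.177), and with upper-quartile scaling (0.0546).

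NEUROG2, the related neurogenin that also drives neuronal differentiation broadly, was the least expressed of the 6. It had 156, 129 and 128 normalized counts in vehicle, 101, 72.3 and 75.1 with VPA and 116, 157 and 177 with VPA + Rapamycin. The 3 VPA libraries were the lowest of the 9, and the vehicle and VPA + Rapamycin libraries overlapped. NEUROG2 fell with VPA by 0.75 on the log2 scale (SE 0.22, edgeR adjusted p = 0.0230) and rose with Rapamycin by 0.86 (SE 0.21, edgeR adjusted p = 0.0193). With VPA + Rapamycin it stood at 109% of the vehicle mean, and the log2 difference from vehicle was 0.11 with a 95% interval of -0.35 to 0.57, which does not show that the levels are alike. The fall with VPA lost its call without vehicle replicate 2 (edgeR adjusted p = 0.0511), VPA replicate 2 (0.0987) or VPA replicate 3 (0.0880). The rise with Rapamycin lost its call without VPA replicate 2 (edgeR adjusted p = 0.0913), VPA replicate 3 (0.0699) or VPA + Rapamycin replicate 3 (0.114), and with all 9 libraries in a single fit (0.0912).

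The regions just before the starts of 4 expressed members, early and late, are shown because proneural factors recognize E-boxes. Each is the 250 bases before the RefSeq start on GRCh38.p14, 5′ to 3′ on the gene's strand, with every CANNTG in capitals: NEUROG1 at chr5:135535965-135536214 (minus strand), NEUROG2 at chr4:112516181-112516430 (minus strand), NHLH1 at chr1:160366821-160367070 (plus strand) and NEUROD4 at chr12:55019724-55019973 (plus strand).
NEUROG1: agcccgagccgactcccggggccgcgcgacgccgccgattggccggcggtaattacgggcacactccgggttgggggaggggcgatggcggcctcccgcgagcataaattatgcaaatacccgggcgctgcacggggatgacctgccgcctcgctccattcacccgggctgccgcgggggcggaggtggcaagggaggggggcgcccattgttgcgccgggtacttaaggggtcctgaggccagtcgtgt
NEUROG2: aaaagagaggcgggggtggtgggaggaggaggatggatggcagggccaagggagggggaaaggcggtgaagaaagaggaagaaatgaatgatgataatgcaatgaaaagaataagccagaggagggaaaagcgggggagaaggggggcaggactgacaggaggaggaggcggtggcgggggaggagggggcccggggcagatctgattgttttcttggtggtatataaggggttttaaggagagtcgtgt
NHLH1: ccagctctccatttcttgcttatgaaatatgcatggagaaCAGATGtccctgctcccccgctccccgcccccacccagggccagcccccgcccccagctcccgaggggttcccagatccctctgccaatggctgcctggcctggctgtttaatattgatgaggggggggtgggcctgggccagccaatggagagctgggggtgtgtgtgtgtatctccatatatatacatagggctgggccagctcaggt
NEUROD4: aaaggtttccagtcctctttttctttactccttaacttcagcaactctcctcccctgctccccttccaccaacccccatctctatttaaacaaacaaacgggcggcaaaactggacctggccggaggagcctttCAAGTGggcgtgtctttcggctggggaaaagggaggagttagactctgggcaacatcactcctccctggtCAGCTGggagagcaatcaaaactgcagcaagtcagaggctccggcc

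The NEUROG1 and NEUROG2 windows held no CANNTG. NHLH1 held CAGATG from 210 to 205 bases before its start, and NEUROD4 held CAAGTG from 116 to 111 and CAGCTG from 46 to 41 bases before its start. RefSeq entries matched 8 of the 9 members with 9 windows, since NHLH2 has a pair of starts. CANNTG, which reads the same on both strands, was in 6 of the 9 windows and in 61.8% of the 35116 promoter windows of the same length. CAGATG on either strand, a form of E-box preferred by NEUROG and NEUROD proteins and included among the CANNTG sites, was in 3 of the 9 windows and in 12.2% of all. CAGCTG was in 2 of 9 and in 14% of all. The windows of NEUROD1, NEUROD2 and NHLH2 lay with all 250 bases inside annotated exons of these genes. Sites in the NEUROD2 and NHLH2 windows are among those counted for CAGATG, and 1 in an NHLH2 window for CAGCTG. These matches describe letters and not bound sites. Sites outside the 250 bases were not searched, and a link between the matches and the fall with VPA was not tested.

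Among the later factors, NEUROD1 maintains the neuronal program and is switched on by neurogenins. It had 803, 1102 and 1196 normalized counts in vehicle, 166, 208 and 205 with VPA and 295, 338 and 363 with VPA + Rapamycin. The 3 conditions did not overlap, with VPA lowest and vehicle highest. NEUROD1 fell with VPA to 18.6% of the vehicle mean, a log2 fold change of -2.43 ± 0.17 (SE; edgeR adjusted p = 9.19e-06), and ranked 28 by p among the 17360 genes tested and 7 among those lowered. It rose with Rapamycin by 0.79 ± 0.14 (SE; edgeR adjusted p = 0.00212) and still stood at 32.1% of the vehicle mean, below vehicle (log2 fold change -1.65 ± 0.17, SE; edgeR adjusted p = 0.000264). Its locus overlaps CERKL on the same strand, whose mean count was 31.8% of that of NEUROD1. How reads shared by both genes were assigned was not tested.

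NEUROD4, which acts between the neurogenins and terminal differentiation, had 1722, 2328 and 2587 normalized counts in vehicle, 1300, 1368 and 1544 with VPA and 1399, 1893 and 1709 with VPA + Rapamycin. The VPA libraries lay below the vehicle libraries, and the VPA + Rapamycin libraries overlapped with both. NEUROD4 fell with VPA by 0.67 on the log2 scale (SE 0.15, edgeR adjusted p = 0.00601). With VPA + Rapamycin it was at 75.4% of the vehicle mean. The log2 difference from VPA was 0.25 (95% interval 0.04 to 0.46, edgeR adjusted p = 0.141), and that from vehicle was -0.42 (95% interval -0.77 to -0.06, edgeR adjusted p = 0.0955). Without VPA + Rapamycin replicate 1 the first of these became a call (edgeR adjusted p = 0.0210), and without vehicle replicate 1 the second did (0.00905).

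NHLH1, a bHLH factor of newly born neurons, had 1548, 1560 and 1990 normalized counts in vehicle, 605, 601 and 752 with VPA and 751, 836 and 614 with VPA + Rapamycin. Both treated conditions lay below all vehicle libraries and overlapped with each other. NHLH1 fell with VPA to 38.4% of the vehicle mean, a log2 fold change of -1.39 ± 0.14 (SE; edgeR adjusted p = 7.52e-05). With VPA + Rapamycin it was at 43.2%, with a log2 fold change from vehicle of -1.22 ± 0.15 (SE; edgeR adjusted p = 0.000637). The log2 difference between the treated conditions was 0.17, with a 95% interval of -0.07 to 0.42 (edgeR adjusted p = 0.427).

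NHLH2, the close relative of NHLH1, had 1564, 2091 and 3965 normalized counts in vehicle, 684, 795 and 1038 with VPA and 1529, 1553 and 1152 with VPA + Rapamycin. The 3 conditions did not overlap, and vehicle replicate 3 was the highest of the 9. NHLH2 fell with VPA by 1.61 on the log2 scale (SE 0.29, edgeR adjusted p = 0.00187), and without vehicle replicate 3 by 1.13 (edgeR adjusted p = 1.44e-05). It rose with Rapamycin by 0.75 (SE 0.13, edgeR adjusted p = 0.00165), a call that was lost with all 9 libraries in a single fit (0.236). With VPA + Rapamycin it stood at 55.6% of the vehicle mean, and the log2 difference from vehicle, -0.86 (95% interval -1.47 to -0.25), just missed the threshold (edgeR adjusted p = 0.0524). That difference was -0.38 without vehicle replicate 3 (edgeR adjusted p = 0.0773), and it was called without vehicle replicate 1, at -1.12 (0.00399).

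The proportions among the members changed for some pairs and overlapped for others. NEUROD1 had 1.25, 1.22 and 1.41 reads per NEUROG1 read in the vehicle libraries, 0.444, 0.478 and 0.411 with VPA and 0.541, 0.518 and 0.776 with VPA + Rapamycin. Both treated conditions lay below all vehicle libraries, and the VPA + Rapamycin libraries lay above the VPA libraries. The reads of NEUROD4 per NEUROG1 read were 2.67, 2.58 and 3.06 in vehicle, 3.49, 3.14 and 3.10 with VPA and 2.57, 2.90 and 3.65 with VPA + Rapamycin. Here VPA lay just above vehicle, and VPA + Rapamycin overlapped with both. NHLH1 per NEUROG1 was 2.40, 1.73 and 2.35 in vehicle, 1.62, 1.38 and 1.51 with VPA and 1.38, 1.28 and 1.31 with VPA + Rapamycin, with vehicle highest. NHLH2 per NEUROG1 was 2.43, 2.32 and 4.69 in vehicle, 1.83, 1.83 and 2.08 with VPA and 2.81, 2.38 and 2.46 with VPA + Rapamycin, where VPA was lowest. NEUROG2 per NEUROG1 was 0.243, 0.144 and 0.151 in vehicle, 0.270, 0.166 and 0.151 with VPA and 0.213, 0.240 and 0.378 with VPA + Rapamycin, and the 3 conditions overlapped. These ratios are given as a description, and being within a library they do not depend on the scaling.

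**Figure D3:**
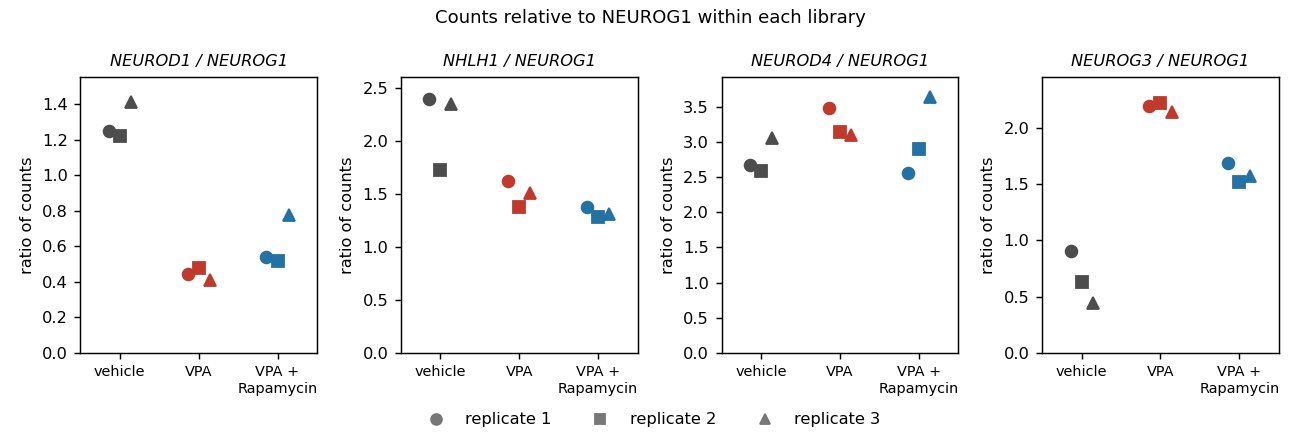
Reads of NEUROD1, NHLH1, NEUROD4 and NEUROG3 per read of NEUROG1 (vertical axes) in each library, by condition, with marker shapes for the replicate number. NEUROD1 lies between 1.22 and 1.41 in vehicle and between 0.411 and 0.478 with VPA, while NEUROG3, a neurogenin outside the 9 members, lies between 0.439 and 0.904 in vehicle and between 2.14 and 2.22 with VPA.

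ATOH1 starts the dI1 class of dorsal interneurons, the most dorsal in the spinal cord, which then express BARHL1, BARHL2, LHX2 and LHX9. ATOH1 had 0, 0 and 126 counts in the vehicle libraries, 0, 2 and 6 with VPA and 0, 7 and 0 with VPA + Rapamycin. Vehicle replicate 3 held nearly all of its reads. BARHL1 had 33 counts and LHX9 had 86 counts in that library, and both had 0 in the other 8 libraries. BARHL2 had 0 counts in all vehicle libraries, 9, 4 and 5 with VPA and 1, 3 and 1 with VPA + Rapamycin. LHX2 followed neither, with 1, 4 and 4 counts in vehicle, 27, 24 and 20 with VPA and 28, 22 and 17 with VPA + Rapamycin. It was the only gene of these 4 with enough counts to be tested, and it rose with VPA by 2.85 on the log2 scale (SE 0.58, edgeR adjusted p = 0.00368). Further listed genes, picked after their values were seen, were also highest among the vehicle libraries in replicate 3, and they were not all neuronal. The dorsal progenitor factor OLIG3 had 228 counts there against 35 and 52 in the other vehicle libraries, and the neuronal factors TLX3 and ISL1 had 58 against 2 and 3 and 137 against 20 and 14. The neural crest factor TFAP2B had 307 counts there against 2 and 2, and the mesenchymal genes LUM, DCN and PRRX1 had 578 against 82 and 67, 97 against 0 and 0, and 53 against 0 and 0. Other genes of the crest and mesenchymal lists were lowest there among the vehicle libraries. SOX10 had 230 counts against 347 and 248, ERBB3 had 113 against 141 and 126, and COL1A1 had 1163 against 3376 and 1553. What sets this library apart was not tested. At 1 library of 3, a difference in ATOH1 between conditions was not detectable.

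**Figure D4:**
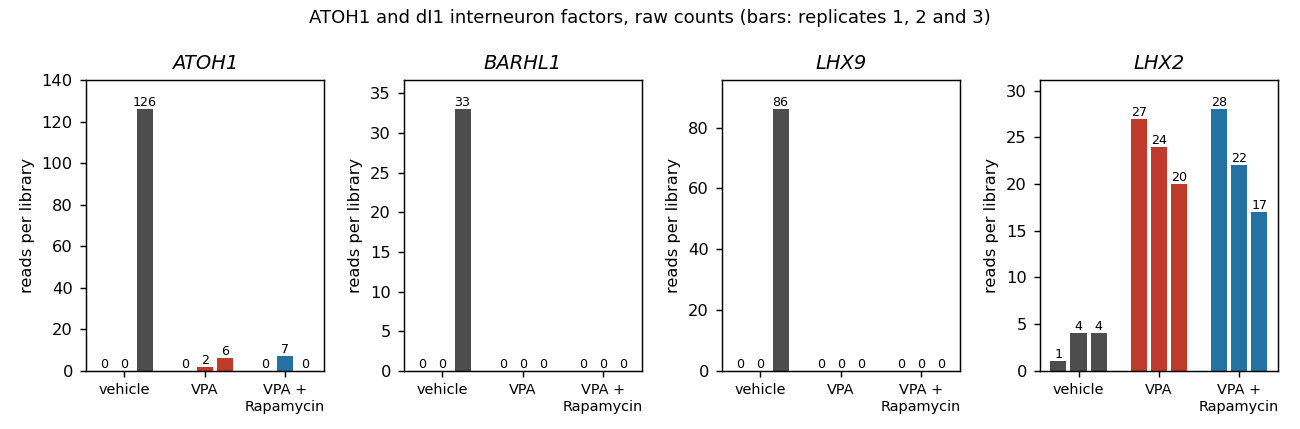
Raw counts per library (vertical axes, bars for replicates 1, 2 and 3 of each condition) of ATOH1 and of the dI1 factors BARHL1, LHX9 and LHX2. The 126, 33 and 86 counts of the first 3 genes in vehicle replicate 3 contrast with 0 to 7 elsewhere, and LHX2 has 17 to 28 counts in each treated library against 1 to 4 in vehicle.

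PTF1A, which selects the inhibitory dI4 interneuron fate, had 2, 2 and 1 counts in vehicle, 0, 0 and 5 with VPA and 0, 0 and 0 with VPA + Rapamycin. These counts lie at or near the 3 counts that a library with 0 reads still allows, and no fold is given. LBX1, a further defining factor of dI4 neurons, was also near the floor, with 4, 1 and 0 counts in vehicle, 7, 0 and 6 with VPA and 0, 0 and 0 with VPA + Rapamycin. The other 6 genes of the dI4 list, GAD1, GAD2, SLC32A1, PAX2, LHX1 and LHX5, are shared with other interneurons. They therefore do not mark dI4 neurons alone. All 7 had a summed level of 3033 to 3488 normalized counts in vehicle, 937 to 1309 with VPA and 1626 to 1999 with VPA + Rapamycin. VPA lowered 6 of the 6 tested genes of this list and raised 0. Among them were the GABA-synthesizing enzymes GAD1 (log2 fold change -1.64, edgeR adjusted p = 1.65e-05) and GAD2 (-1.70, 0.000174) and the transcription factors LHX5 (-1.55, 9.83e-05) and PAX2 (-1.51, 0.000565). Relative to VPA, 5 of 6 rose with Rapamycin, including GAD2 by 1.03 (edgeR adjusted p = 0.00289). That count was 2 without VPA replicate 1, 1 without VPA replicate 2 and 3 without VPA + Rapamycin replicate 2. Against vehicle, 5 of 6 stayed lower with VPA + Rapamycin, or 3 without VPA + Rapamycin replicate 1. NEUROD2, a factor of more mature neurons, had 2, 0 and 2 counts in vehicle, 0, 0 and 1 with VPA and 0, 4 and 0 with VPA + Rapamycin, too few to compare.

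Of 9 other neural bHLH activators tested, 5 were called lower with VPA by edgeR and 4 by DESeq2, which did not call OLIG1 (adjusted p = 0.265), and 1 was called higher by both. Counts of this and the other lists stand beside the edgeR shares over all genes tested. With VPA 15.7% were called lower and 16.4% higher. The shares were 3.73% and 3.01% for Rapamycin relative to VPA, and 9.22% and 9.81% for VPA + Rapamycin against vehicle. TAL1, a bHLH factor of V2b interneurons, fell by 2.87 on the log2 scale (edgeR adjusted p = 7.41e-06), BHLHE22, found in dorsal interneurons, by 2.49 (8.56e-05) and OLIG3, a factor of dorsal progenitors, by 3.50 (0.00320), or by 2.24 without vehicle replicate 3 (0.00166). NEUROG3, the neurogenin known mainly for the endocrine pancreas, rose by 0.90 (edgeR adjusted p = 0.00281). It had 582, 567 and 371 normalized counts in vehicle, 818, 967 and 1068 with VPA and 917, 992 and 737 with VPA + Rapamycin. Both treated conditions lay above vehicle, opposite to NEUROG1 and NEUROG2 with VPA, and with VPA + Rapamycin NEUROG3 stayed 0.79 above vehicle (edgeR adjusted p = 0.0130). Relative to VPA, 3 of 9 activators rose with Rapamycin. TAL1 rose by 0.88 (edgeR adjusted p = 0.0349). OLIG1, called at 3.10 (edgeR adjusted p = 0.0392), had 32, 111 and 683 counts with VPA + Rapamycin against 0, 89 and 10 with VPA, and DESeq2 did not call it (adjusted p = 0.415). The 3 calls became 1 without VPA replicate 1 and 1 without VPA + Rapamycin replicate 3. Against vehicle, 3 of 9 activators were lower with VPA + Rapamycin and 1 higher, and the latter was not called without VPA + Rapamycin replicate 1 or replicate 2.

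The E proteins are the partners of the proneural factors, and the HES, HEY and ID proteins are their opponents. Of the 3 E proteins, TCF4 fell with VPA by 0.59 on the log2 scale (edgeR adjusted p = 0.00539), while TCF3 was at -0.19 and TCF12 at -0.08, neither called. Without vehicle replicate 3, 2 of the 3 were called. Rapamycin relative to VPA gave 0 calls among them, with an unadjusted p under 0.05 for TCF4 (0.0356). Of 10 HLH inhibitors, VPA raised 3 and lowered 0, or lowered 2 without vehicle replicate 1. Over all genes tested, 16.4% were called higher and 15.7% lower. The log2 fold changes of 5 of the 10 inhibitors were below 0, and the median of the 10 was 0.17. The Notch-responsive repressors HES5 and HEYL rose by 0.95 (edgeR adjusted p = 0.000114) and 1.69 (0.000175), and ID1 rose by 0.72 (0.00573). HES5 had 5188, 5223 and 5259 normalized counts in vehicle, 9829, 9168 and 11519 with VPA and 6420, 7342 and 6224 with VPA + Rapamycin, which puts the 3 conditions in separate ranges. Relative to VPA, Rapamycin lowered 3 of the 10 and raised 0, or raised 2 without VPA + Rapamycin replicate 1. HES1 fell by 1.14 (edgeR adjusted p = 0.000389), HES5 by 0.61 (0.000444) and HEYL by 0.57 (0.00954). Against vehicle, VPA + Rapamycin SCOs had 2 of the 10 lower, HES1 among them at -0.66 (edgeR adjusted p = 0.0214), and 3 higher, HEYL, ID1 and HES5. The 3 higher calls became 1 without vehicle replicate 2 or VPA + Rapamycin replicate 2, and the 2 lower calls became 0 to 1 without each library but vehicle replicate 1.

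Genes that lie downstream of proneural factors fell with VPA. Of 19 such neurogenic genes 14 were called lower and 0 higher, or 1 higher without vehicle replicate 1 or VPA replicate 2 and by DESeq2. Their median log2 fold change was -0.71. INSM1, a zinc finger factor that drives the exit from the progenitor state, fell by 1.71 (edgeR adjusted p = 8.05e-06), ST18 by 1.72 (0.000154), EBF3 by 1.38 (8.03e-05) and MYT1 by 1.28 (0.000109). INSM1 had 2096, 2316 and 2480 normalized counts in vehicle, 683, 660 and 783 with VPA and 1065, 1316 and 1139 with VPA + Rapamycin, again with separate ranges and VPA lowest. Relative to VPA, 6 of 19 rose with Rapamycin and 1 fell. ST18 rose by 0.91 (edgeR adjusted p = 1.69e-05), INSM1 by 0.73 (0.000178) and EBF3 by 0.61 (0.000625), and BTG2, which restrains the cell cycle, fell by 1.02 (2.15e-06). Against vehicle, 13 of 19 were lower with VPA + Rapamycin and 0 higher. The 13 became 8 without vehicle replicate 2, 7 without VPA + Rapamycin replicate 1, 8 without its replicate 2 and 7 without its replicate 3.

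**Figure D5:**
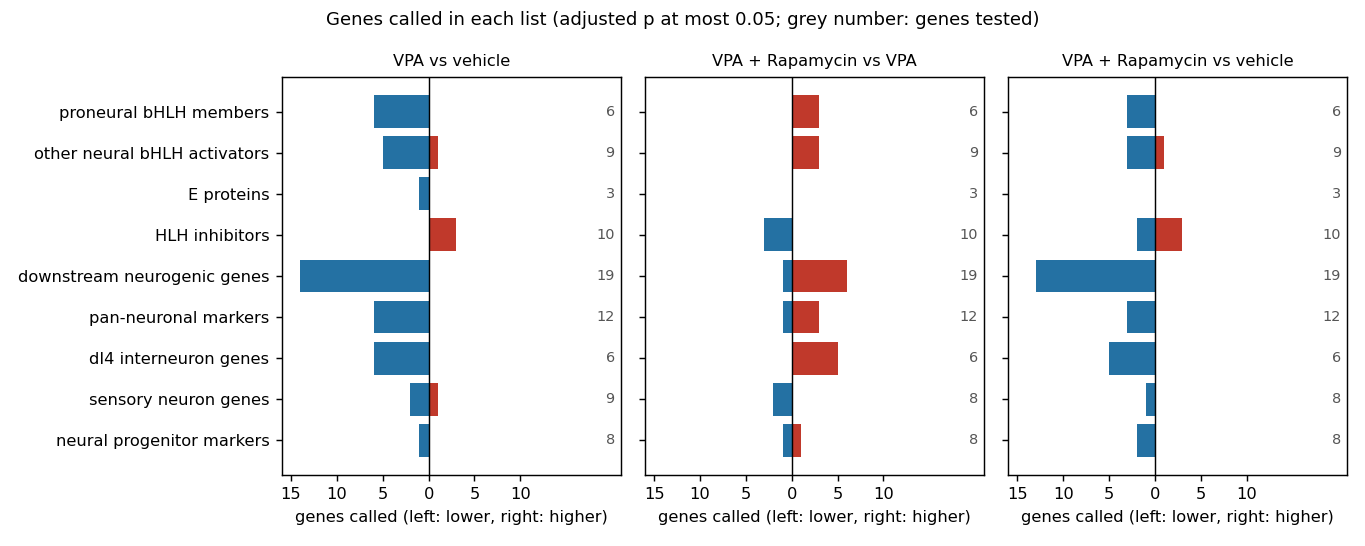
Number of genes called lower (left of 0) and higher (right of 0) in each of 9 gene lists and 3 comparisons by edgeR at an adjusted p of at most 0.05, with the number tested in grey. The 6 tested members, 14 of 19 downstream neurogenic genes and 6 of 6 tested genes of the dI4 list are called lower with VPA against vehicle, beside 3 of 10 HLH inhibitors called higher.

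Some of the markers of neurons as a class moved in the same comparisons. Of 12 pan-neuronal markers, 6 fell with VPA and 0 rose, with ELAVL4 at -1.20 (edgeR adjusted p = 0.000508), NEFM at -1.05 (0.00763; -0.66 without vehicle replicate 3), DCX at -0.75 (0.00698) and ELAVL3 at -0.64 (0.00281). The summed level of the 12 was 28397 to 51002 normalized counts in vehicle, 25697 to 28059 with VPA and 27290 to 30355 with VPA + Rapamycin. Relative to VPA 3 rose with Rapamycin and 1 fell, GAP43 by 0.60 (edgeR adjusted p = 0.00219). The 3 became 0 without VPA replicate 2 or VPA + Rapamycin replicate 3 and 1 without VPA replicate 3. Against vehicle 3 of 12 were lower with VPA + Rapamycin, a count of 7 without vehicle replicate 1 and of 1 without VPA + Rapamycin replicate 1. The summed level of the 8 progenitor markers was 37202 to 45637 in vehicle, 41976 to 43513 with VPA and 40007 to 43415 with VPA + Rapamycin, which overlap, and of these 8 only MSI1 was called with VPA (-0.70, edgeR adjusted p = 0.00447). Without vehicle replicate 3, 3 were called lower and 1 higher, and without vehicle replicate 1, 2 lower.

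Markers of other cell types also moved with the conditions. The 8 mesenchymal markers summed to 2279 to 4875 normalized counts in vehicle, 9223 to 11811 with VPA and 4025 to 6111 with VPA + Rapamycin. COL1A1 and COL1A2 made up most of these sums, with VPA means of 4463 and 5277, so the sums do not describe the class. With VPA, 3 of the 7 tested markers had log2 fold changes below 0, none of them called. With VPA 2 of 7 tested rose, COL1A2 by 2.12 (edgeR adjusted p = 0.00100) and COL1A1 by 1.11 (0.0124), and 0 fell. That count was 5 without vehicle replicate 3, and 1 without vehicle replicate 2 or VPA replicate 1. Relative to VPA 5 of 7 fell with Rapamycin, or 3 without VPA replicate 1, VPA + Rapamycin replicate 2 or VPA + Rapamycin replicate 3. The 8 neural crest markers summed to 6592 to 7999 in vehicle and 6456 to 6896 with VPA, with 4 of 7 called lower and 1 higher, or 2 higher without vehicle replicate 3, SOX10 falling by 5.15 (edgeR adjusted p = 2.52e-06). Among 9 tested genes of sensory neurons, a lineage that uses NEUROG1 and NEUROG2, 2 fell and 1 rose with VPA, and the 1 became 3 without vehicle replicate 3. In the main test, 15.7% of all genes tested were called lower with VPA and 16.4% higher. Muscle and paraxial mesoderm markers summed to 74.0 at most in any library, with 1 listed marker at 0 in all, and were 21.5 to 40.1 in vehicle and 52.0 to 74.0 with VPA, which do not overlap. Of its 2 tested genes, MYOD1, the bHLH factor of muscle, had 1, 0 and 0 counts in vehicle and 26, 17 and 14 with VPA and was called higher (edgeR adjusted p = 0.00119). The part of a changed cell makeup in the fall of the proneural factors was not tested.

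Over the whole bHLH family, as annotated in the tables and added after the data were seen, 20 of 76 tested genes were lower and 16 higher with VPA, where 15.7% and 16.4% of all genes tested were. The 20 include the 6 members. The median log2 fold change of the 76 was -0.17.

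Across the 9 libraries the profiles of NEUROG1, NEUROD1, NEUROD4, NHLH1 and NHLH2 resembled one another, with pairwise Pearson correlations of log2 normalized counts between 0.84 and 0.94, while those of NEUROG2 with the other 5 lay between 0.37 and 0.55. The libraries come from 3 conditions, so these values follow the differences between conditions and describe likeness only. Among 13394 genes, the profiles most like NEUROG1 were those of POU3F4 (0.981), PCP4 (0.977) and PHLDA1 (0.964). For NEUROG2 they were KIAA0355 (0.930), NOG (0.929) and AC060780.1 (0.927), and for NEUROD1 they were ANKRD10 (0.994), KBTBD2 (0.993) and DDX17 (0.992). NEUROD4 was most like ABTB2 (0.981), ZNF582 (0.976) and HIST2H2BC (0.967), NHLH1 like MYT1 (0.992), C1S (0.984) and SPATA18 (0.982), and NHLH2 like CHRNA4 (0.983), MED17 (0.982) and C1orf21 (0.970).

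In the tables, on GRCh38, NEUROG1 lies at chr5:135534282-135535949, NEUROG2 at chr4:112513516-112516172, NEUROD1 at chr2:181673088-181680876, NEUROD2 at chr17:39603536-39609777 and NHLH2 at chr1:115836377-115843917, all on the minus strand. NEUROD4 at chr12:55019945-55030014, ATOH1 at chr4:93828753-93830964, PTF1A at chr10:23192327-23194252 and NHLH1 at chr1:160367067-160372848 lie on the plus strand.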

How the data were processed

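Bulk RNA sequencing measured mRNA in 9 SCO libraries. After poly-T selection and cDNA synthesis from random hexamers, the authors counted reads per gene and deposited the raw counts, 1 table for each pair of conditions (30034, 29566 and 30047 genes, each with at least 2 reads over its table). The submitters' processing notes name HISAT2 2.0.5 and featureCounts 1.5.0-p3. Use of the strand is not given in the sources used here, so reads of genes that overlap on opposite strands cannot be told apart. NEUROD1 and CERKL lie on the same strand, which would not separate their reads. Coordinates matched GENCODE 29 (GRCh38) for 99.8% of genes. The tables also hold normalized values and the authors' fold changes and p-values, which were not used.

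Libraries were grouped by the treatment in the labels. The tests used edgeR 4.0.16 under R 4.3.3 (TMM, filterByExpr, quasi-likelihood F test, Benjamini-Hochberg adjustment over all genes tested, threshold 0.05), in the table of each pair and without a replicate block. Levels are counts scaled with TMM over the 9 libraries. RPKM were computed here from these and the deposited gene length. Confidence intervals are 95% and not adjusted. A library with 0 reads allows up to 3 counts, for counting error only. Alternatives were DESeq2 1.42.0, a joint fit of the 9 libraries, the replicate number as a block, upper-quartile scaling, no filter, a filter of 10 counts in every library, and each library left out in turn. Methods were tested on simulated data. Replicates differed by more than sampling noise. RefSeq promoters were searched on both strands.

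Genes named are the 9 members, for each list at most the 4 called genes with the smallest p in a comparison or all of a list of up to 4 genes, the 3 genes most like each expressed member among those with a mean of at least 50 counts, and overlapping genes above 10% of a member's count. TLX3, ISL1, TFAP2B, LUM, DCN, PRRX1, LBX1, SLC32A1, LHX1, the counts of OLIG1, SOX10, ERBB3 and COL1A1 and the list of all bHLH genes were added after values were seen. The members and lists were chosen with earlier results of these data known. The values of 1 listed gene are not reported here.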

Additional observations from a re-analysis of the deposited data

How the results depend on the processing

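Over 12 alternatives per comparison, the count of members lower with VPA than vehicle was 5 to 7 (6 in 8 of them, 5 to 6 when each library was left out), where 7 came from keeping all genes, which lets in ATOH1 and its 1 vehicle library. NEUROG1, NEUROD1, NEUROD4, NHLH1 and NHLH2 kept this call under all 12. The count of members higher with VPA + Rapamycin than VPA, 3 in the report, was 1 with all 9 libraries in a single fit and 2 to 4 when each library was left out. Only NEUROD1 kept its call there under all 12. The single fit called 44 genes higher and 69 lower over all genes, against 522 and 646. The count lower with VPA + Rapamycin than vehicle, also 3, was 6 without the filter, 5 with all 9 libraries in a single fit, and 2 to 5 when each library was left out. NEUROD1 and NHLH1 kept this call under all 12. NEUROG2 against vehicle turned to -0.020 without VPA + Rapamycin replicate 3 (edgeR adjusted p = 0.969), in a range of -0.020 to 0.27 over the libraries left out, from 0.11. With the replicate number as a block that count was 5, adding NEUROD4 (edgeR adjusted p = 0.0215) and NHLH2 (0.0203), and the block changed no other call of a member. The labels repeat the same 3 prefixes across conditions, so equal numbers may mark the same clone, but no label names a clone. Deviations of same-numbered libraries correlated between -0.0607 and 0.171, and the main tests did not take them as pairs. The causes were not tested. PTF1A and NEUROD2 cannot be compared at this depth, and ATOH1 rests on 1 library.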
